A study of Sus scrofa with 24 samples.

Results

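The nuclear genes of the respiratory chain and the ATP synthase were followed in 24 pig fetuses, in the longissimus dorsi muscle (LDM) that runs along the back. Members were taken by gene symbol: probe sets whose platform symbol begins with NDUFA, NDUFB, NDUFC, NDUFS, NDUFV, UQCR, COX4 to COX8 or ATP5, or is SDHA, SDHB, SDHC, SDHD or CYC1, with COX6C left out. Of the 13750 gene symbols in the table, 58 met the rule. The probe set with the highest median signal stood for its gene. A gene was kept when this probe set lay above the median of its array in at least 20 of the 24 arrays, and 53 of the 58 members passed, against 9710 genes in all. The kept members were 24 of 25 complex I subunits, 3 of 4 complex I assembly factors that share the NDUF prefix, 3 of 3 complex II subunits, 2 of 2 complex III subunits, 7 of 8 complex IV members and 14 of 16 ATP synthase members.

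All 24 fetuses were F2 offspring of a German Landrace and Pietrain cross sampled at 63 dpc (days post conception). Each gave 1 Affymetrix Porcine Snowball array of total RNA from LDM, deposited as log2 signal after robust multichip average (RMA) normalization. The study compared fetuses with intrauterine growth restriction (IUGR) with litter mates appropriate for gestational age (AGA), chosen as sib pairs of discordant weight by a single sire. The deposited labels name neither weight group, sex nor dam of any fetus, so no groups were compared and values are given over the 24 fetuses, named by fetus number. Differences that weight, sex and litter may cause are part of the spreads and correlations below, and fetuses picked for extreme weight need not show the spread of unselected ones.

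The respiratory chain passes electrons from NADH (complex I) and succinate (complex II) through ubiquinone, complex III and cytochrome c to oxygen at complex IV. Complexes I, III and IV pump protons across the inner mitochondrial membrane, and the ATP synthase uses their return to make ATP. Most subunits are encoded in the nucleus and a few core subunits in mitochondrial DNA, so that each complex needs both genomes. Complex II is nuclear throughout. Skeletal muscle fibres differ widely in mitochondrial content, with slow fibres rich in mitochondria and fast glycolytic fibres poor in them. The roles given for single subunits are those known from the human and bovine enzymes.

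Skeletal muscle markers were checked first. Of 12 listed markers 9 had a probe set named here, and all 9 passed the filter. Of these, 8 had a median signal above 9.71, the median of the brightest class of background control probes, which match no transcript. CKM, the muscle creatine kinase, ran from 13.36 to 13.62 and ACTA1, skeletal alpha actin, from 13.01 to 13.54. Of 7 cardiomyocyte markers 5 had a probe set named here, and of these only TNNT2 and RYR2 passed, with medians of 9.32 and 7.04. Whole muscle was used, and in such bulk samples fewer cells of a type and less RNA per cell cannot be told apart. The median signal of an array ran from 6.61 to 6.73, the highest in fetus 376, and an array's median correlation with all other arrays was lowest in fetus 338 (0.946), followed by fetuses 311 and 376 (0.961 each). Of the 53 members, 19 had a median above the brightest background class, so that the signal of the other members can hold more unspecific hybridization. The share of all genes above this class is not given here, so the count does not place the members beside genes in general.

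The members spread over the fetuses about as widely as genes in general. The span of a gene, its 90th minus its 10th percentile of log2 signal over all fetuses, had a median of 0.42 over the 53 members and 0.42 over all 9710 genes. By complex the median span was 0.44 for complex I, 0.42 for its assembly factors, 0.42 for complex II, 0.40 for complex III, 0.50 for complex IV and 0.40 for the ATP synthase. A span of at least 1.5-fold was found in 8 of 53 members (15.1%), beside 19.4% of all genes. These were ATP5S, COX7C, NDUFC1, NDUFA9, NDUFB5, COX7A2, NDUFV3 and ATP5L, and the plot of spans by complex shows them above the rest of their complexes.

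**Figure D1:**
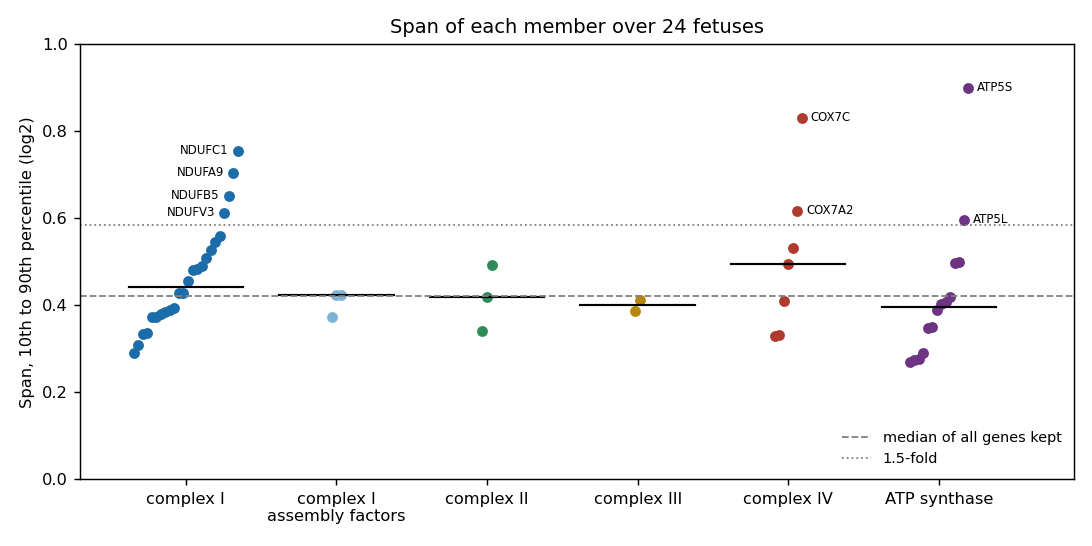
Each point is 1 of 53 members, plotted by complex against its span over 24 fetuses (90th minus 10th percentile, log2), with solid bars at the median of each complex, a dashed line at the median of all genes kept and a dotted line at 1.5-fold. Most members lie near the dashed line at 0.42, and 8 named members exceed the dotted line.

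The members moved together more than pairs of genes did on average. The mean pairwise Pearson correlation among the 53 members over the 24 fetuses was 0.241, beside 0.0298 among all 9710 genes. Of the 53 members, 32 (60.4%) had a correlation of at least 0.5 with the mean of the other members, beside 21% of all genes with the mean of the members. Only 3 members (5.66%), NDUFS7, ATP5S and NDUFAF2, had a correlation below 0, beside 40.8% of all genes. Members share arrays, and these values are descriptions without a test.

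Within complexes, the mean pairwise correlation was 0.334 for complex IV, 0.257 for the ATP synthase, 0.242 for complex I, 0.173 for complex II and 0.0969 for the assembly factors. Both kept complex III subunits went apart, at -0.205. Inside complex I the 10 kept subunits of the distal membrane arm, the part farthest from the NADH-oxidizing arm, had a mean pairwise correlation of 0.390, the 7 of the proximal membrane arm 0.209 and the 5 of the N module, which oxidizes NADH, 0.136. In the ATP synthase the 3 genes of the c ring, the rotor in the membrane, stood at 0.460, the 4 genes of the catalytic F1 head at 0.376, the 3 accessory genes of the membrane part at 0.335 and the 2 kept genes of the stator, which holds the head still, at 0.162. The Q module of complex I, which hands electrons to ubiquinone, was kept with 2 genes (NDUFS7 and NDUFA9) at -0.193, and ATP5S and ATP5SL, which are not counted to any part of the enzyme here, stood at -0.348. These subdivisions were chosen after a first look at the data.

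**Figure D2:**
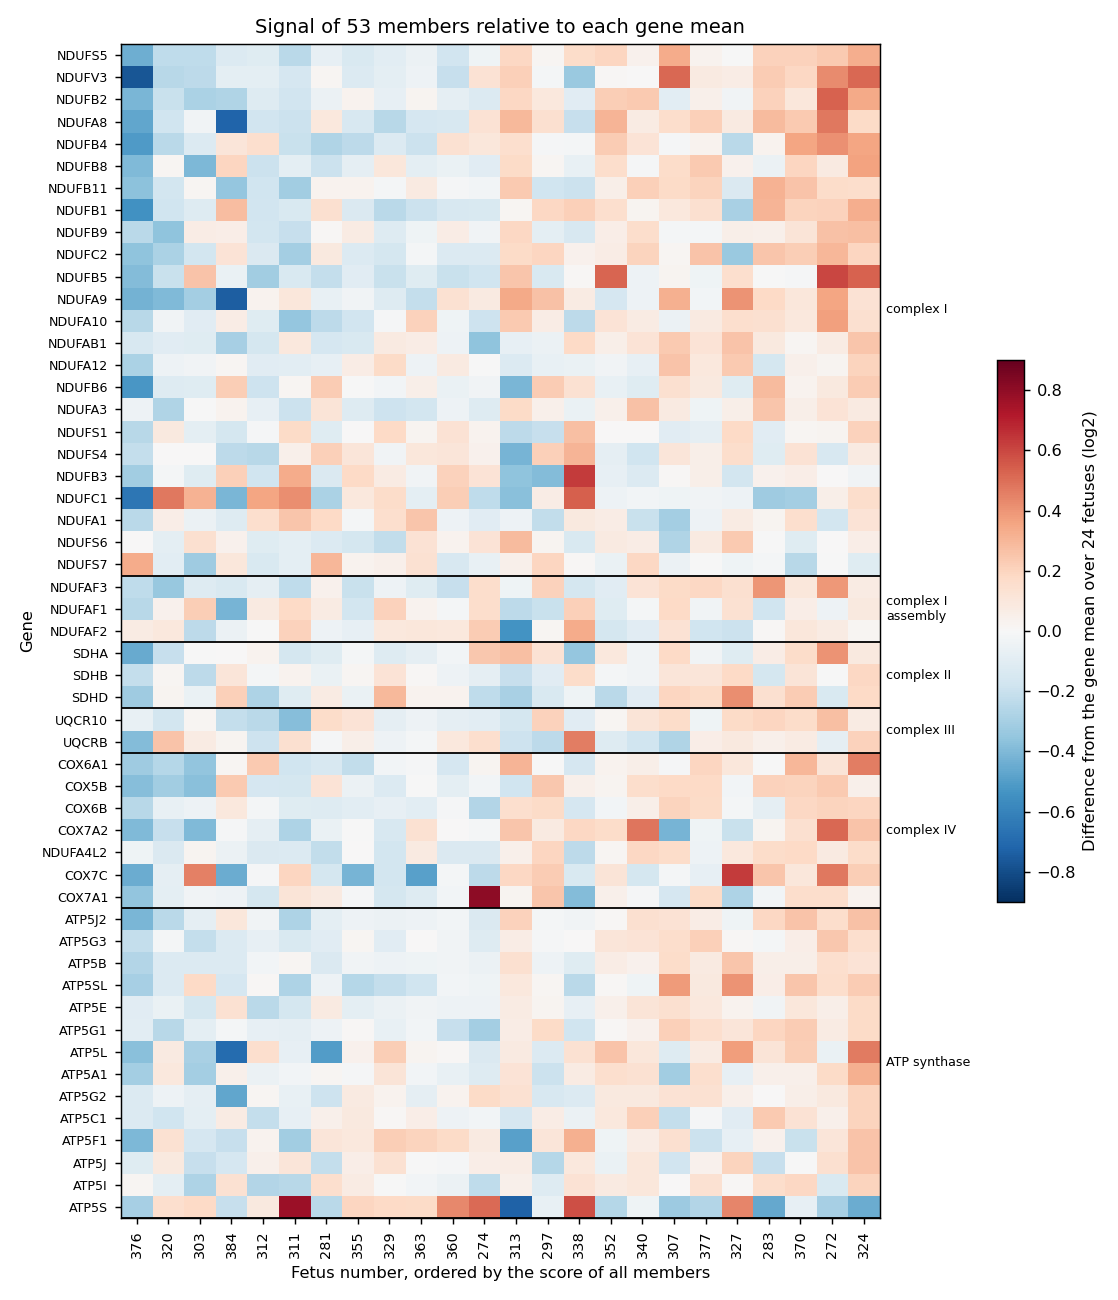
Rows are the 53 members grouped by complex and sorted within it by correlation with the other members, columns are the 24 fetuses ordered from the lowest to the highest mean of all members, and color is the log2 difference from the gene mean. Blue on the left and red on the right run through most rows, fetus 376 is blue in nearly all, and the lower rows of complex I and the row of ATP5S do not follow this order.

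A score was formed for each fetus as the mean of the gene-centred log2 signals of the 53 members. It was lowest in fetus 376 (-0.284) and highest in fetus 324 (0.187), followed by fetuses 272 (0.152) and 370 (0.108). The step from fetus 376 to the next, fetus 320 (-0.0910), took 0.409 of the whole range, and the other 23 fetuses formed an unbroken series. With each array centred on the median of its kept genes this step was smaller, from -0.188 in fetus 376 to -0.110 in fetus 303. The highest score was then 0.138, in fetus 324. Without such centring, the order upwards from fetus 320 was 303, 384, 312, 311, 281, 355, 329, 363, 360, 274, 313, 297, 338, 352, 340, 307, 377, 327, 283, 370, 272 and 324.

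A printed list of the study assigns the fetus numbers to weight groups. That listing is not part of the deposited labels, entered no score and no test, and is set here only beside the order just given. By it, the fetuses from 376 up to 329 in that order were all IUGR, fetus 363 was AGA, fetuses 360 and 274 were IUGR, fetuses 313 and 297 were AGA, fetus 338 was IUGR, and those from 352 up to 324 were all AGA. Whether the score differs between weight groups was not tested, and sex and dam were not taken into account.

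Fetus 376 was the lowest of the 24 in 19 of 53 members, beside 15.4% of all genes. It lay below the median of the 24 fetuses in 50 of 53 members and in 6229 of 9710 genes. Its median deviation from the gene medians was -0.29 over the members and -0.10 over all genes. By complex this deviation was -0.35 for complex I, -0.34 for complex IV, -0.31 for complex II, -0.24 for complex III and -0.22 for the ATP synthase. NDUFV3, an accessory subunit beside the flavin site of complex I, deviated most (-0.76), followed by NDUFC1 (-0.62), NDUFB1 (-0.57), NDUFA8 (-0.54), NDUFB6 (-0.53) and NDUFB4 (-0.52). NDUFS7 went the other way and was highest of all in fetus 376. At the upper end, 23 of 53 members were highest in fetus 272 (11 members) or fetus 324 (12 members), beside 14% of all genes. Fetus 324 held the maximum of 7 of the 14 ATP synthase members, beside 428 of all 9710 genes. Fetus 272 held that of 6 of the 24 complex I subunits, beside 933 of all 9710 genes.

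**Figure D3:**
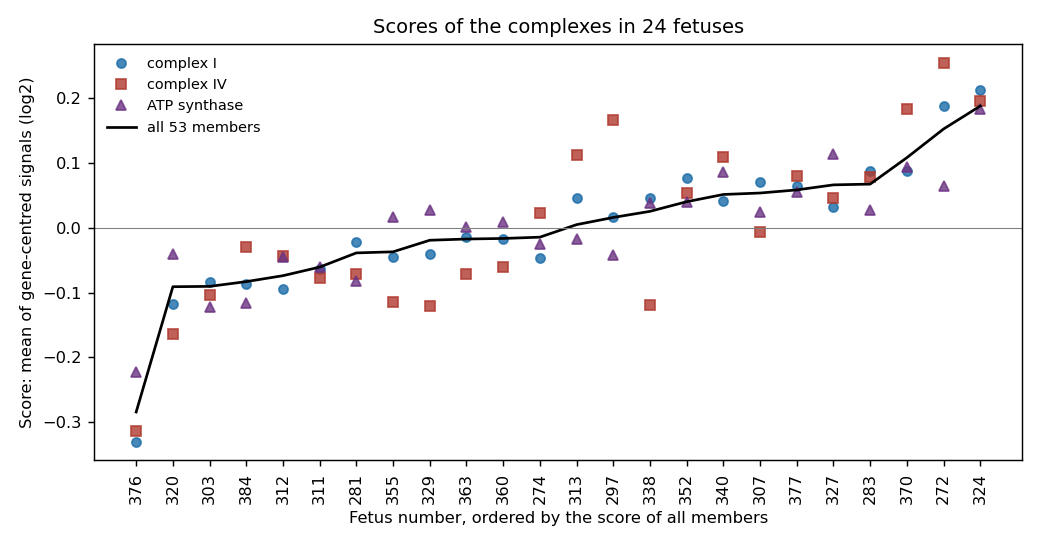
The line gives the score of all 53 members (mean of gene-centred log2 signals) for each of 24 fetuses in ascending order, and symbols give the scores of complex I, complex IV and the ATP synthase in the same fetuses. All series begin lowest at fetus 376, and fetuses 313, 297 and 338 show complex IV apart from the other scores.

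Complexes I, IV and the ATP synthase followed each other over the fetuses. The complex I score correlated with that of the ATP synthase at r = 0.856 (Spearman's rho = 0.804) and with that of complex IV at r = 0.851 (rho = 0.746), and r stayed at 0.709 and 0.772 when the 2 fetuses of most extreme complex I score were left out. In all such values below, the 2 fetuses left out are the most extreme in the score of all members or, for a pair of complexes or genes, in the one named first. Complex IV and the ATP synthase gave r = 0.676 (rho = 0.563, and 0.544 without 2 fetuses). The relation of complex I to complex II (r = 0.698, rho = 0.509) and to complex III (r = 0.579, rho = 0.491) dropped to 0.413 and 0.357 without 2 fetuses. The assembly factors were less closely related to complex I (r = 0.401, rho = 0.443). Differences between these correlations were not tested. Single fetuses departed from the common order: fetus 313 had a score of 0.00461 over all members but of -0.271 for the assembly factors and -0.170 for complex III, and fetus 338 had a complex III score of 0.180 and a complex IV score of -0.120.

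Among complex I subunits, those of the electron-carrying arm behaved unequally. NDUFV3 ran from 10.05 in fetus 376 through a median of 10.81 to 11.34 in fetus 307, and correlated with the other members at 0.83. NDUFS7, the core subunit that holds the last iron-sulfur cluster before ubiquinone, ran from 7.58 in fetus 303 through 7.88 to 8.23 in fetus 376, with a correlation of -0.35 (rho = -0.15) that was 0.0088 without the 2 fetuses of most extreme NDUFS7 signal. NDUFA9, an accessory subunit that binds a nicotinamide nucleotide at the junction of the arms, ran from 8.85 in fetus 384 through 9.65 to 10.001 in fetus 327 and had a correlation of 0.61. The minima of these 3 genes thus lay in 3 different fetuses. NDUFS6, a zinc-binding accessory subunit, had the smallest span of the complex (0.29), between 8.71 in fetus 307 and 9.27 in fetus 313, and a correlation of 0.06. The core subunit NDUFS1 and the accessory subunit NDUFS4 were both highest in fetus 338, at 8.72 and 11.12.

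In the membrane arm, NDUFS5, an accessory subunit on the intermembrane side, followed the other members most closely of all 53 (r = 0.87, rho = 0.88). It ran from 7.995 in fetus 376 through 8.41 to 8.77 in fetus 307. NDUFB2, of the distal arm, ran from 8.997 in fetus 376 through 9.37 to 9.94 in fetus 272 (r = 0.82, rho = 0.80). NDUFB5, also of the distal arm, had a span of 0.65, with 8.33 in fetus 376, a median of 8.67 and 9.32 in fetus 272. These 3 subunits shared their lowest fetus. NDUFC1, a small proximal subunit, had the largest span of complex I (0.75), from 7.69 in fetus 376 through 8.31 to 8.87 in fetus 338, and yet correlated with the other members at only 0.07. NDUFA1, a small proximal subunit whose values lay near the filter, ran from 6.64 in fetus 307 through 6.95 to 7.19 in fetus 363, with a correlation of 0.06. Of the 10 kept distal subunits, 9 had a correlation of at least 0.5 with the other members, the exception being NDUFB3 (0.08), which was also near the filter.

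The assembly factors build complex I and do not stay in it. NDUFAF3, which acts early in assembly, ran from 8.63 in fetus 320 through 8.92 to 9.37 in fetus 283 and correlated with the other members at 0.65. NDUFAF1, which helps to assemble the membrane arm, ran from 7.30 in fetus 384 through 7.75 to 7.94 in fetus 303, with a correlation of 0.18. NDUFAF2, which acts late in assembly, ran from 6.59 in fetus 313 through 7.15 to 7.46 in fetus 338, with a correlation of -0.08. Only NDUFAF3 followed the subunits.

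Complex II links the chain to the citric acid cycle. SDHA, its flavoprotein, ran from 9.37 in fetus 376 through 9.82 to 10.23 in fetus 272. SDHB, its iron-sulfur subunit, ran from 11.20 in fetus 303 through 11.45 to 11.63 in fetus 324. SDHD, a membrane anchor, ran from 7.51 in fetus 376 through 7.82 to 8.24 in fetus 327. Although SDHA and SDHB form the catalytic head together, no relation between them was detectable (r = -0.0781, rho = -0.213, permutation p = 0.718 for r, adjusted p = 0.923, and r = -0.369 without 2 fetuses). For complex III, UQCR10, a small accessory subunit, ran from 9.43 in fetus 311 through 9.80 to 10.08 in fetus 272. UQCRB, which lies near a ubiquinone site, ran from 6.90 in fetus 376 through 7.32 to 7.74 in fetus 338. UQCR10 correlated with the other members at 0.51 and UQCRB at 0.22, so that the complex III score joins subunits that did not move together.

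The median span of complex IV was 0.50, the widest of the complexes, but without fetus 376 it was 0.40 and below that of complex I (0.42). COX7C, a small subunit, ran from 9.18 in fetus 363 through 9.65 to 10.30 in fetus 327, a span of 0.83, with a correlation of 0.46 with the other members. COX7A2, the ubiquitous form of subunit 7A, ran from 8.65 in fetus 307 through 9.06 to 9.59 in fetus 272 (span 0.62, r = 0.59). COX6A1, the ubiquitous form of subunit 6A, ran from 10.98 in fetus 303 through 11.33 to 11.79 in fetus 324 (span 0.53, r = 0.67). Each of these genes had its minimum in another fetus. COX7A1, the form of subunit 7A typical of heart and skeletal muscle, ran from 8.34 in fetus 338 through 8.71 to 9.53 in fetus 274, where it stood alone above the other 23 fetuses. COX7A1 and COX7A2 gave r = 0.238 (rho = 0.363, adjusted permutation p = 0.594 for r), and r = 0.504 without the 2 fetuses of most extreme COX7A1 signal. COX7A1 gave r = 0.00422 with the slow fibre score (rho = 0.345, adjusted p = 0.985 by permutation) and r = 0.0456 with the fast fibre score (rho = 0.259, adjusted p = 0.936 by permutation), while without 2 fetuses these were 0.425 and 0.448. The low r of COX7A1 with fibre genes thus rested on those 2 fetuses, of which fetus 274 was the farther. NDUFA4L2, a paralog of the complex IV subunit NDUFA4 that responds to hypoxia, was the steadiest member of this group, from 7.15 in fetus 338 through 7.40 to 7.58 in fetus 297. It showed no detectable relation to the smooth muscle and pericyte score (r = 0.117, rho = 0.0783, adjusted permutation p = 0.923 for r).

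The F1 head of the ATP synthase holds the catalytic sites. ATP5B, the catalytic beta subunit, ran from 12.004 in fetus 376 through 12.23 to 12.52 in fetus 327 (span 0.27) and correlated with the other members at 0.78. ATP5A1, the alpha subunit, ran from 10.79 in fetus 307 through 11.14 to 11.42 in fetus 324 (span 0.42), and ATP5C1, the gamma subunit of the central stalk, from 10.09 in fetus 312 through 10.30 to 10.54 in fetus 283 (span 0.35). ATP5E, the epsilon subunit, had the smallest span of all 53 members (0.27), between 9.13 in fetus 312 and 9.55 in fetus 324. Neither ATP5A1 (r = 0.334, rho = 0.317, adjusted permutation p = 0.331) nor ATP5C1 (r = 0.0999, rho = 0.106, adjusted permutation p = 0.923) showed a relation to ATP5B that passed the threshold. ATP5B was related to CS, the citrate synthase often used as a measure of mitochondrial content (r = 0.510, permutation p = 0.0108, adjusted p = 0.0487, and 0.442 without 2 fetuses). By rank this relation did not pass (rho = 0.418, adjusted permutation p = 0.189), and under 5 alternatives of processing it missed the threshold, with r between 0.360 and 0.529 and an adjusted permutation p between 0.0511 and 0.357.

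ATP5G1, ATP5G2 and ATP5G3 encode the same mature c subunit with different import sequences. ATP5G1 ran from 11.46 in fetus 274 through 11.76 to 11.99 in fetus 370 and ATP5G3 from 9.80 in fetus 303 through 10.02 to 10.26 in fetus 272. Their relation was the closest of the 9 planned pairs that could be computed (r = 0.575, permutation p = 0.00353, adjusted p = 0.0318, and r = 0.596 without 2 fetuses). By rank it gave rho = 0.677 (adjusted permutation p = 0.00414). With each array centred on the median of its kept genes the adjusted permutation p was 0.0634. These p-values took no account of weight group, sex or dam, whose part in the relation was not tested. ATP5G3 also followed the other members at 0.79. ATP5J2, the membrane subunit f, ran from 9.07 in fetus 376 through 9.46 to 9.75 in fetus 324 (r = 0.80 with the other members), and ATP5L, the membrane subunit g, from 7.14 in fetus 384 through 7.89 to 8.30 in fetus 324 (span 0.60, r = 0.55). Both were highest in fetus 324. ATP5SL, whose human product is known as a complex I assembly component in spite of its symbol, ran from 10.28 in fetus 376 through 10.58 to 10.99 in fetus 327 (r = 0.60). ATP5S, known as coupling factor B, had the largest span of all members (0.90), from 6.32 in fetus 313 through 6.99 to 7.82 in fetus 311, and ran against the others (r = -0.28, rho = -0.46).

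Of 25 pairs planned, 9 could be computed and 2 passed an adjusted p of 0.05 for r, ATP5G1 with ATP5G3 and ATP5B with CS. P-values came from 100000 permutations, 2-sided, adjusted by Benjamini-Hochberg over the 9 pairs. The permutations shuffled all fetuses freely and took no account of weight group, sex or dam. Such p-values assume fetuses that can be exchanged, which litter mates picked for discordant weight need not be. The part of weight group and litter in the pairs that passed was not tested. The other planned pairs lacked a gene: COX4I1, COX4I2, COX5A, COX6A2, CYC1, NDUFS8, NDUFV1, UQCRC1, UQCRC2 and UQCRFS1 had no probe set named here, and NDUFA4 and PPARGC1A did not pass the filter. The NDUFV2 probe set carries the platform symbol NUDFV2 and fell outside the rule, and its signal ran from 10.25 in fetus 376 through 10.46 to 10.75 in fetus 324 (r = 0.545 with the score of all members, rho = 0.337, and r = 0.214 without 2 fetuses).

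Correlations with the background controls were no more frequent among the members than among all genes. The mean of 39 background controls holding at least 13 G or C bases was compared with each member over the 24 fetuses. A correlation of -0.5 or lower was found for 9 of 53 members (16.98%), beside 21.2% of all genes: NDUFC1 (-0.74), NDUFAF1 (-0.67), NDUFS4 (-0.67), ATP5S (-0.66), NDUFS1 (-0.64), UQCRB (-0.62), NDUFAF2 (-0.57), ATP5F1 (-0.55) and NDUFB3 (-0.54). A correlation of at least 0.5 was found for 3 members, NDUFA3 (0.63), NDUFA10 (0.52) and NDUFS6 (0.51), beside 16.9% of all genes. None of the 9 had a correlation of 0.5 with the other members. The array of fetus 338 had a low background signal (7.30), and 7 members, all among these 9, had their maximum there, a share close to the 13.3% of all genes. The part of background signal in these patterns was not tested. The score of all members had a low correlation with the background controls (r = 0.0444, rho = 0.258, and 0.345 without 2 fetuses).

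**Figure D4:**
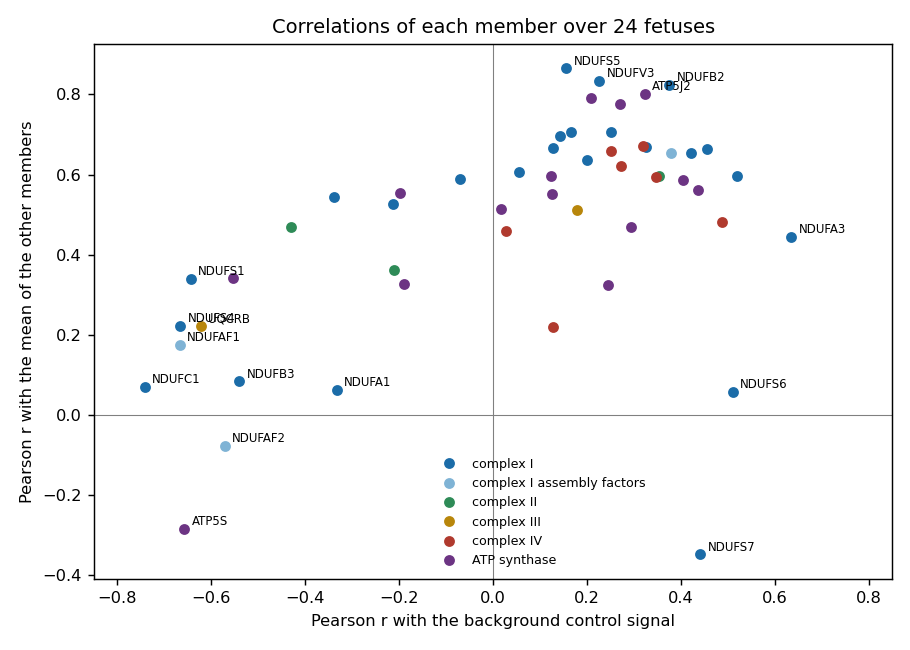
Each point is 1 of 53 members, with its Pearson correlation with the background control signal on the x axis and with the mean of the other members on the y axis, both over 24 fetuses and colored by complex. The 32 members at 0.5 or above on the y axis lie between -0.34 and 0.52 on the x axis, and the members at the far left lie below 0.35 on the y axis.

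Other genes of energy metabolism were set beside the members. Glycolysis, which makes ATP in the cytosol, ran in the same direction: the score of the 9 kept genes of its list, among them GYS1, the glycogen synthase and no glycolytic enzyme, correlated with that of all members at r = 0.784 (rho = 0.770, 0.721 without 2 fetuses), and 7 of the 9, GYS1 (0.63) included, had a correlation of at least 0.5. ENO3, the muscle enolase (0.81), and TPI1, triosephosphate isomerase (0.77), were closest, and both were lowest in fetus 376 and highest in fetus 272. By complex, glycolysis was related to complex IV at 0.840, to complex I at 0.819, to complex II at 0.616, to the ATP synthase at 0.548 and to complex III at 0.339. Without 2 fetuses the values for the ATP synthase and complex III were 0.331 and 0.0713. The fast fibre score gave r = 0.677 (rho = 0.639, 0.631 without 2 fetuses) and the slow fibre score r = 0.475 (rho = 0.446, 0.438 without 2 fetuses). A correlation of at least 0.5 with the members was found for 3 of 9 fast fibre genes and 3 of 10 slow fibre genes. Fast fibre genes ranged from ATP2A1, the calcium pump of fast fibres (0.62), to MYH4, a fast myosin heavy chain (-0.21), and slow fibre genes from MYH7, the slow myosin heavy chain (0.59), to ATP2A2, the calcium pump of slow fibres (-0.33). The difference between fast and slow fibre relations was not tested.

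The citric acid cycle, which feeds the chain with NADH and succinate, was divided. DLST (0.79), IDH3B (0.63), OGDH (0.62), MDH2 (0.61), SUCLG1 (0.60) and CS (0.53) had correlations of at least 0.5 with the score of all members. FH (0.47) and DLAT (0.02) lay between 0 and 0.5. Negative values were found for SUCLA2 (-0.48), DLD (-0.32), SUCLG2 (-0.25), PDHA1 (-0.13) and IDH3A (-0.003). PDHA1 and DLAT belong to the pyruvate dehydrogenase complex and are listed with the cycle here. With the background controls SUCLA2 gave -0.59, DLD -0.85 and SUCLG2 -0.75, whose part in this division was not tested. The score of the 13 kept genes was thus only loosely related to the members (r = 0.302, rho = 0.119, -0.120 without 2 fetuses). Among the 7 kept genes listed as carriers for oxidative phosphorylation, 5 had a correlation of at least 0.5. They included the outer membrane channels VDAC1 (0.76) and VDAC2 (0.69), and ATPIF1 (0.75), the inhibitor of the ATP synthase. The others were SLC25A5 (0.67), an ADP/ATP carrier, and SLC25A3 (0.65), the phosphate carrier. SLC25A4, the ADP/ATP carrier typical of muscle, had a correlation of 0.25, and TFAM, which is in this list but is no carrier, of -0.46. Of the 12 kept assembly factors outside the rule, COX17 (0.69), which delivers copper to complex IV, ACAD9 (0.61), BCS1L (0.54) and ATPAF1 (0.52) reached 0.5, and LRPPRC, which stabilizes mitochondrial mRNAs, stood at -0.42, and at -0.69 with the background controls.

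**Figure D5:**
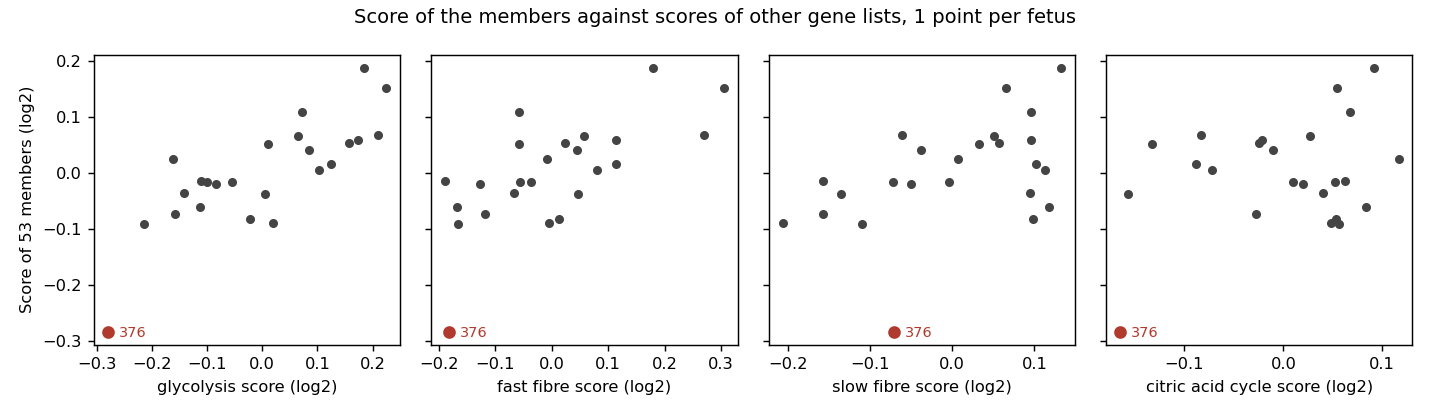
Each point is 1 of 24 fetuses, with the score of all 53 members on the y axis and the score of glycolysis, fast fibre, slow fibre or citric acid cycle genes on the x axis (means of gene-centred log2 signals), and fetus 376 in red. The relation with glycolysis runs through the whole range (r = 0.784), whereas for the citric acid cycle (r = 0.302) the other fetuses form a cloud without direction. Fetus 376 stands apart by its score of the members. Its citric acid cycle score (-0.165) lies close to that of fetus 281 (-0.157).

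Regulators of mitochondrial biogenesis did not run with the members as a group (score of 9 kept genes r = -0.255, rho = -0.438, -0.597 without 2 fetuses). GABPA, the DNA-binding part of a transcription factor for many respiratory chain genes, ran from 6.29 in fetus 272 through 7.04 to 7.74 in fetus 320 and was opposed to the score (r = -0.601, rho = -0.757). TFAM, which packages and transcribes mitochondrial DNA, ran from 7.16 in fetus 283 through 7.99 to 8.89 in fetus 338 (r = -0.461, rho = -0.637). POLG, the mitochondrial DNA polymerase, ran from 7.74 in fetus 311 through 7.95 to 8.24 in fetus 283 and followed the score (r = 0.642, rho = 0.716). NRF1, another factor for respiratory chain genes, gave r near 0 (r = 0.0598, rho = 0.0191). TFB1M (r = 0.45), PPARGC1B (0.42) and PPRC1 (0.41) had positive values, and POLRMT (-0.57) and GABPB1 (-0.18) negative ones. Without 2 fetuses TFB1M gave 0.084, PPARGC1B 0.121, PPRC1 0.324, POLRMT -0.269 and GABPB1 -0.453, while GABPA gave -0.751. In all, 5 of the 9 had a positive r. Over the fetuses GABPA and TFAM ran against the background controls (r = -0.57 and -0.66), and so did GABPB1 (-0.70). POLG ran with the controls (0.52), and POLRMT gave 0.06. The part of background signal in these relations was not tested. None of these 9 regulators had a median above the brightest background class. No mitochondrially encoded subunit had a probe set named here, so both genomes could not be compared.

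Markers of other cell types were given the same comparison. The score of the 9 kept endothelial markers moved with the members (r = 0.755, rho = 0.727, 0.591 without 2 fetuses) and ranged from -0.198 to 0.140. A correlation of at least 0.5 was found for 3 of the 9, KDR (0.65), CDH5 (0.58) and ENG (0.53). TEK gave r = 0.32 but rho = -0.005, and EMCN went the other way (r = -0.12, rho = -0.35). With the background controls EMCN gave -0.69 and TEK -0.58, against 0.79 for TIE1, 0.64 for CLDN5 and 0.55 for VWF. The part of background signal here was not tested. Only 2 of the 9 had a median above the brightest background class. Skeletal muscle markers gave r = 0.534 (rho = 0.528, 0.466 without 2 fetuses), smooth muscle and pericyte markers 0.448 (rho = 0.168, 0.164 without 2 fetuses), macrophage and leukocyte markers 0.258 (rho = 0.347) and adipocyte markers 0.0498 (rho = 0.142). The 2 erythroid genes kept, HBB and ALAS2, had correlations of 0.36 and 0.40. The part of cell composition in the common movement of the members was not tested.

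Agreement between probe sets of a gene could be read for 9 members with at least 2 kept probe sets. The correlation of the brightest with the next brightest ran from -0.166 (ATP5C1) to 0.778 (NDUFV3) with a median of 0.605, and was at least 0.5 for 5 genes, NDUFV3, ATP5J (0.64), NDUFB8 (0.62), SDHA (0.61) and SDHB (0.61). For ATP5E (-0.03), NDUFB4 (0.13) and ATP5C1 the pattern over fetuses depended on the probe set. The members that failed the filter were ATP5H, ATP5O, NDUFA4, NDUFAF4 and NDUFB10. At the edge of the filter, ATP5S and NDUFB3 passed in 21 arrays, NDUFA1 in 22 and NDUFAF2 in 23, whereas NDUFAF4 reached 14 and NDUFB10 2 arrays.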

How the data were processed

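Total RNA from LDM of 24 fetuses was hybridized to 1 array each. The authors normalized the arrays with RMA in Expression Console and deposited log2 values. The submitters' processing notes also name GCOS 1.1.1. RMA evens out the signal distributions of the arrays but did not remove all differences between them. Array medians still ran from 6.61 to 6.73, and in fetus 376 the median deviation of all kept genes was -0.10. The genome build behind the array is not stated in those notes or in the study's methods, and coordinates and sequences are left out.

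There were 47845 probe sets, 123 of them controls. The platform annotation named 26426, and 325 of these had their symbols updated through synonyms of the RefSeq gene table (Sscrofa11.1). The filter (20 of 24 arrays, that is at least 80%) is no detection call. The members had 92 probe sets, 38 members having 1 and 20 several, and roles and complexes were assigned by hand. The members and gene lists were chosen with earlier results of these data known, and NDUFA4 and NDUFA4L2 were counted with complex IV. Fast fibre and skeletal muscle lists share MYL1, MYLPF, TNNC2 and TNNT3, and TFAM stands in 2 lists. Named genes were, per complex, the 3 members of largest and the 1 of smallest span, the 5 with the highest and the 5 with the lowest correlation with the other members, and all members of planned pairs. Other genes were named after their values were seen. Scores are means of gene-centred values. The labels put no fetus in a group, so the study's fit of weight group, sex and dam was not run. Python 3.11.15, numpy 2.4.6, scipy 1.17.1 and pandas 2.3.3 were used, and the code was tested on simulated data. Alternatives were the mean of probe sets, no filter, a filter in all 24 arrays, arrays centred on their median, background controls regressed out, the 2 arrays of lowest correlation left out, the standard deviation as spread and, chosen after seeing the data, fetus 376 left out. With 1 array per fetus, precision is limited by the number of arrays.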

Additional observations from a re-analysis of the deposited data

How the results depend on the processing

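Over the alternatives run, the median span of all members lay between 0.39 and 0.48 (the latter with the standard deviation as spread), the count of members with a wide span between 6 and 10, and the mean pairwise correlation of all members between 0.173 and 0.292. The share of all genes with a wide span lay between 9.54% and 24.6%. With background controls regressed out it was 9.54%, beside 6 of 53 members. The median span was then 0.40 over the members and 0.36 over all genes. The mean pairwise correlation of all members was 0.173 with arrays centred (0.0108 for all genes) and 0.173 without fetus 376 (0.0267 for all genes). For the ATP synthase it was 0.163 without a filter and 0.341 with a filter in all 24 arrays, where complex I and its assembly factors correlated at 0.596. The count of members with a correlation of at least 0.5 with the others was 25 with arrays centred (11.97% of all genes) and 29 without fetus 376 (15.97%). Fetus 324 had the highest score in every setting and fetus 376 the lowest in every setting that held it. The count of planned pairs called, 2 in the main setting, was 1 without a filter, 0 with arrays centred, 1 with background controls regressed out, 1 without the 2 arrays of lowest correlation and 1 without fetus 376. The cause was not tested. The correlation of all members with the citric acid cycle moved from 0.302 to -0.0568 with arrays centred, and the cause was not tested. No paired analysis was run, because groups were taken here from the deposited labels alone, which give neither weight group nor dam. A fit on the study's own list of weight groups, dams and sexes was not run. Dim members, those at or under the background controls, limit what the signal can show.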

Other observations

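The genes outside the members whose signal was most like the score of all members were listed after their values were seen. Of 9657 such genes, 51 had a correlation of at least 0.8 and 1 had a correlation of -0.8 or lower over the 24 fetuses. The closest were ARIH2 (0.887), a ubiquitin ligase, METTL9 (0.881), a histidine methyltransferase, CDC42SE1 (0.871), INTS10 (0.870), a subunit of the Integrator complex, SIN3A (0.866), a scaffold of histone deacetylase complexes, NUP205 (0.858), a nuclear pore protein, NSMCE1 (0.853), PSME2 (0.851), a proteasome activator subunit, AARS (0.848), an alanyl-tRNA synthetase, and XRCC6 (0.847), a DNA end-binding protein. None of these 10 is a mitochondrial gene of the lists used here. Without the 2 fetuses of most extreme signal of the gene itself, ARIH2 stood at 0.793 and METTL9 at 0.746. At the other end were RSBN1L (-0.832), DNAJC3 (-0.662), a chaperone of the endoplasmic reticulum, and MPHOSPH9 (-0.646).

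Among adipocyte markers, FABP4, a fatty acid binding protein, had a correlation of 0.60 with the score of all members and CD36, a fatty acid transporter, of -0.54. The other kept markers of this list lay between -0.38 (PLIN1) and 0.27 (LPL). Fetus 338 had the highest signal of CD36 and fetus 283 the lowest, at 10.003 and 8.284. With the background controls CD36 gave -0.62 and FABP4 0.41, and the part of background signal was not tested.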
